A study of Mus musculus with 53 samples.

Results

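Ubd, which encodes the ubiquitin-like protein FAT10, and 7 genes of the interferon-inducible proteasome and antigen-processing machinery, Psmb8, Psmb9, Psmb10, Psme1, Psme2, Tap1 and Nlrc5, were followed through all 8 groups of a sciatic nerve RNA-seq study. These 8 of the 49568 genes listed were found by symbol, all 8 in every sample. Ubd was chosen by its own log2 values at 24 weeks of age, which were high in HFD mice and low in SD and HFD-DR mice, so its levels in these groups, and in the HFD-STZ mice set against the same SD mice, are given as a description with no test. The other 7 genes, called its companions here, were chosen for their known function, and the question put to the data was whether they moved with Ubd.

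All samples came from the sciatic nerve of male C57BL/6J mice. Mice on a standard diet (SD) were sampled at 16 weeks (n = 5) and 24 weeks (n = 8) of age. HFD mice ate a high-fat diet with 60% of energy from fat from 5 weeks of age and were sampled at 16 weeks (n = 7) and 24 weeks (n = 7), as a model of prediabetes. HFD-STZ mice ate the same diet, received streptozotocin, a toxin of pancreatic beta cells, at 12 weeks of age in a dose of 75 mg/kg and then one of 50 mg/kg, and were sampled at 16 weeks (n = 5) and 24 weeks (n = 8), as a model of type 2 diabetes (T2D). In dietary reversal (DR), mice of both models returned to the control diet at 16 weeks for 8 weeks and were sampled at 24 weeks, giving HFD-DR (n = 7) and HFD-STZ-DR (n = 6) groups. Each sample is taken as 1 mouse. All values are on the log2 scale the authors deposited. Its transformation is not named and may shrink differences between low values, so a unit need not be a doubling of expression for a low gene such as Ubd in SD mice, and the number of reads behind a gene is unknown.

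The proteasome degrades proteins that carry a ubiquitin tag. Under interferon, cells exchange its catalytic subunits for the immunoproteasome subunits, add an activator cap and raise the peptide transporter and MHC class I, so that more peptides reach the cell surface. FAT10 is a second degradation tag, conjugated to proteins much as ubiquitin is, and is known to be induced by interferon gamma together with TNF and to be high in mature dendritic cells and B cells.

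On the GRCm38 build with GENCODE M21, Ubd lies on the forward strand at chr17:37193892-37196095, within the extended MHC region. Psmb9 (chr17:34181987-34187764, reverse strand), Tap1 (chr17:34187553-34197225, forward strand) and Psmb8 (chr17:34197721-34201454, forward strand) stand next to each other in the MHC class II region of the same chromosome. Psmb10 (chr8:105935735-105938444, reverse strand), Nlrc5 (chr8:94434356-94527272, forward strand), Psme1 (chr14:55578123-55581529, forward strand) and Psme2 (chr14:55587441-55591113, reverse strand) lie elsewhere. Psmb9 and Tap1 overlap in their exons, and since the libraries were not stranded, reads from the shared part cannot be assigned to one of them. Exons of Psmb8, Psme1 and Nlrc5 overlap another annotated gene as well, and 44.5% of the 100-base stretches of Psme2 also occur in Psme2b, so Psme2 is uncertain. Ubd overlaps no gene, and 0% of its stretches occur elsewhere.

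The 250 bases before the transcription start were available from RefSeq (GRCm38.p6) for 7 of the 8 genes. Only the stretch before Ubd is printed in full, since Ubd is the gene whose level differed most between groups. Capitals mark its only match to the 3 motifs searched on both strands.

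Ubd, chr17:37193642-37193891, forward strand: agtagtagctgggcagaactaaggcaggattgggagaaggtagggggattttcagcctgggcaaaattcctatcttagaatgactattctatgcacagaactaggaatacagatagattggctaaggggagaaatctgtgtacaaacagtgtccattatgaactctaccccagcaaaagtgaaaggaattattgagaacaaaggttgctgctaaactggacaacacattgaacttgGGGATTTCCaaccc

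The marked GGGATTTCC matches GGNNTTNCC, a form of the NF-kB motif, and starts 14 bases before the transcription start. That motif was present in 13.5% of 32851 windows of this length and in no window of the other 6 genes. Psme2 has overlapping windows from different RefSeq starts, and all were searched. The interferon-stimulated response element GAAANNGAA, found in 7.1% of all windows, was in 0 of the 7, and the gamma-activated site TTCNNNGAA, found in 7.0%, was in that of Psmb8 alone, as TTCCCAGAA from 97 bases before the start. The windows of Psmb9 and Tap1 share 225 bases. A match is a description of the letters and not a measured binding site. The windows of Psmb8, Psmb9 and Psme1 lie inside the annotated spans of these genes given above. The bases before those annotated gene starts were not searched, and 1 pattern stood for each motif. The lack of a match here therefore does not show that a gene has no such element.

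Ubd was low in every SD sample and high, over a wide range, in most mice kept on the high-fat diet. Among SD mice it read 4.20, 4.14, 3.39, 4.06 and 4.96 at 16 weeks, and from 3.95 to 5.26 with a median of 4.64 at 24 weeks. In HFD mice it ranged from 4.73 to 9.60 at 16 weeks (median 7.73) and from 7.04 to 10.19 at 24 weeks (median 8.62). All 7 HFD mice at 24 weeks were above all 8 SD mice, while at 16 weeks 6 of 7 HFD mice were above all 5 SD mice and 1 lay within their range.

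In HFD-STZ mice, Ubd read 4.90, 4.11, 4.48, 4.05 and 6.13 at 16 weeks and ran from 4.86 to 9.21 at 24 weeks (median 7.27). HFD-DR mice ranged from 3.20 to 6.24 (median 4.37) and HFD-STZ-DR mice from 3.90 to 5.02 (median 4.31). Every HFD-DR value was below every HFD value of the same age. In the HFD-STZ arm, 5 of 6 reversed mice were below all 8 HFD-STZ mice, and the ranges met only at 1 HFD-STZ mouse with 4.86 and 1 reversed mouse with 5.02.

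The order of the group means was HFD 24 weeks (8.64 ± 1.26, SD, n = 7), HFD-STZ 24 weeks (7.48 ± 1.56, n = 8), HFD 16 weeks (7.42 ± 1.85, n = 7), then HFD-STZ 16 weeks (4.73 ± 0.85, n = 5), HFD-DR (4.73 ± 1.05, n = 7), SD 24 weeks (4.55 ± 0.46, n = 8), HFD-STZ-DR (4.44 ± 0.41, n = 6) and SD 16 weeks (4.15 ± 0.56, n = 5). The first 3 groups overlapped one another and so did the last 5, within their spread. The 3 groups on high-fat diet with high Ubd also had the largest spread between mice.

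**Figure D1:**
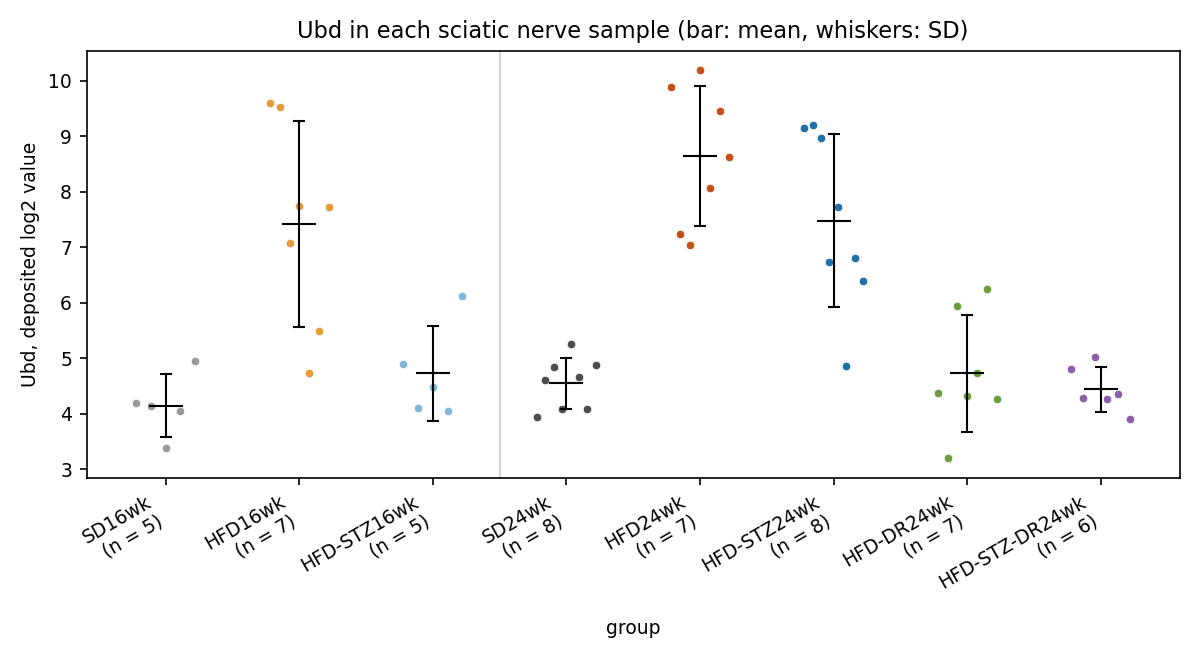
Deposited log2 value of Ubd (vertical axis) in each of the 53 samples by group (horizontal axis), with the mean as a bar and the SD as whiskers. HFD mice at 24 weeks lie between 7.04 and 10.19, above all SD, HFD-DR and HFD-STZ-DR samples, and HFD-STZ mice span 4.05 to 6.13 at 16 weeks and 4.86 to 9.21 at 24 weeks.

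As a description, Ubd was higher by 4.09 (SE 0.43) in HFD than in SD mice and by 2.93 (SE 0.53) in HFD-STZ than in SD mice at 24 weeks, and it was lower by 3.92 (log2 difference -3.92, SE 0.55) in HFD-DR than in HFD mice. The tests of Ubd that follow use mice outside the rule that chose the gene. Ubd was still chosen with earlier results of these data known, so these p-values may not be independent of that choice. At 16 weeks, the difference between HFD and SD mice was 3.27 (SE 0.75, 95% interval 1.66 to 4.88), with a 2-sided exact permutation p = 0.00505. It did not pass the threshold across all genes (adjusted p = 0.245 with limma), and did so with all 8 groups in 1 fit (adjusted p = 0.0303 with limma) and with the library run added (adjusted p = 0.0262; range over the alternatives 0.0262 to 0.76). Leaving out 1 mouse at a time, it never passed (adjusted p from 0.126 to 0.53 with limma). HFD-STZ mice at 16 weeks differed from SD mice by 0.58 (95% interval -0.30 to 1.47, exact permutation p = 0.278) and from HFD mice by -2.68 (95% interval -4.33 to -1.04, exact permutation p = 0.0177, adjusted p = 0.987 with limma).

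Between 16 and 24 weeks, Ubd in HFD-STZ mice differed by 2.75 (95% interval 1.27 to 4.23), and 7 of 8 mice at 24 weeks were above all 5 at 16 weeks (exact permutation p = 0.00466, adjusted p = 0.279 with limma). After reversal in the HFD-STZ arm, Ubd differed by -3.04 (SE 0.60, 95% interval -4.32 to -1.77, exact permutation p = 0.00133), which missed the threshold across all genes (adjusted p = 0.0891 with limma; range over the alternatives 0.0148 to 0.437). It passed with all 8 groups in 1 fit (adjusted p = 0.0148 with limma) and with the library run added to that fit (-3.06, adjusted p = 0.0237). Without the HFD-STZ mouse that read 4.86 the difference was -3.42 and passed (adjusted p = 0.00474 with limma), and it also passed without the HFD-STZ mouse that read 6.81 (-3.14, adjusted p = 0.041). It did not pass without any other single mouse, with adjusted p up to 0.26 in limma. As a description, the mean of HFD-STZ-DR mice stood -0.12 and that of HFD-DR mice 0.18 from the SD mean of their age, and HFD mice at 24 weeks stood 1.23 above those at 16 weeks.

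Adipocyte markers followed Ubd in some comparisons and not in others. Their median difference was 0.65 where Ubd stood 4.09 higher (HFD against SD at 24 weeks) and -1.15 where Ubd stood at -3.92 (HFD-DR against HFD). It was 1.68 from 16 to 24 weeks in SD mice, where Ubd differed by 0.40, and -1.39 in HFD-STZ-DR against SD mice, where Ubd differed by -0.12, and limma called no marker in any comparison. The mean log2 value of 6 adipocyte genes (Adipoq, Plin1, Cidec, Fabp4, Lipe and Pparg), all far above 0 in every group, ran per sample from 10.14 to 12.52 in SD and from 11.06 to 13.58 in HFD mice at 24 weeks, and from 9.79 to 12.64 in HFD-DR mice. It ran from 10.65 to 13.31 in HFD-STZ and from 8.70 to 11.29 in HFD-STZ-DR mice, and at 16 weeks from 8.24 to 11.89 in SD, 11.50 to 13.42 in HFD and 9.11 to 12.38 in HFD-STZ mice. Adipocytes lie in the fat around and within the nerve sheath. Within groups, Ubd rose with it in HFD mice at 24 weeks (Pearson r = 0.98, Spearman rho = 0.86, n = 7, exact permutation p = 0.00159 and 0.0238, adjusted p = 0.00952 and 0.0476 over 6 groups, r = 0.98 without the 2 samples farthest from the median of Ubd). The same relation was seen in HFD-DR mice (r = 0.86, rho = 1.00, n = 7, exact permutation adjusted p = 0.0206 and 0.00238, r = 0.83 without 2) and in HFD-STZ mice at 24 weeks (r = 0.84, rho = 0.83, n = 8, exact permutation adjusted p = 0.0124 and 0.0461, r = 0.69 without 2). It did not pass in HFD mice at 16 weeks (r = 0.74), SD mice at 24 weeks (r = 0.63) or HFD-STZ-DR mice (r = 0.35), with exact permutation adjusted p from 0.0964 to 0.526. In whole nerve, more cells of a type and more RNA per cell cannot be told apart.

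Mice of unlike groups were also set side by side at like adipocyte levels, as values with no test. In the range of marker means that both groups share (11.06 to 12.52), 3 of 7 HFD mice had Ubd values from 7.04 to 8.07 and 7 of 8 SD mice had values from 3.95 to 5.26, and these mice are among those that chose Ubd. Between 11.06 and 12.64, 4 of 7 HFD mice read 7.04 to 8.62 and 5 of 7 HFD-DR mice 4.33 to 6.24. The ranges overlapped for HFD-STZ and SD mice at 24 weeks between 10.65 and 12.52, where 3 of 8 HFD-STZ mice read 4.86, 6.73 and 6.81 and 7 of 8 SD mice 3.95 to 5.26. At 16 weeks, between 11.50 and 11.89, 3 of 7 HFD mice read 5.50 to 7.73 and the 1 SD mouse 4.96. In the HFD-STZ reversal, between 10.65 and 11.29, the 2 HFD-STZ mice read 4.86 and 6.81 and the 3 HFD-STZ-DR mice 4.26 to 4.81. With the marker mean as a covariate, the difference of HFD from SD mice was 3.51, that of HFD-STZ from SD mice 2.38 and that of HFD-DR from HFD mice -2.79. In the HFD-STZ arm the reversal difference was -1.32 with the covariate (adjusted p = 0.437 with limma), less than the -3.04 without it, and the 16-week difference of HFD from SD mice was 2.11 (adjusted p = 0.428 with limma) in place of 3.27.

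**Figure D2:**
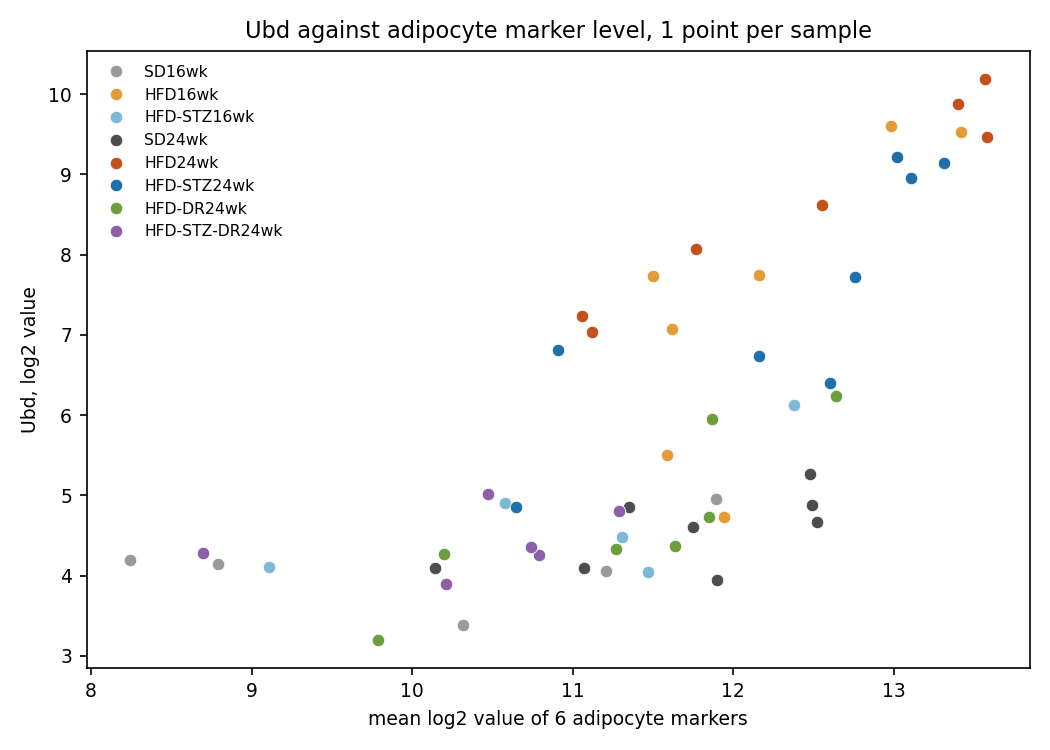
Log2 value of Ubd (vertical axis) against the mean log2 value of 6 adipocyte markers (horizontal axis), 1 point per sample and 1 colour per group. Between marker means of 11.06 and 12.52, HFD mice at 24 weeks lie at 7.04 to 8.07 and SD mice of that age at 3.95 to 5.26.

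No companion showed a difference of the size of that of Ubd under HFD. At 24 weeks, 0 of the 7 differed between HFD and SD mice past the threshold in limma, and 0 had an unadjusted p under 0.05, in a comparison that called 0.121% of 18191 genes and had 9.05% of genes under an unadjusted p of 0.05. In 6 of 7 the HFD mean was the lower one, against 52.0% of all genes with a higher HFD mean, and the median of the 7 differences was -0.04.

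Psmb8, Psmb9 and Psmb10 encode the 3 catalytic subunits particular to the immunoproteasome. Psmb8 ran from 9.77 to 10.22 in SD mice (median 10.02) and from 9.51 to 10.41 in HFD mice (median 9.75), a difference of -0.18 (SE 0.12, 95% interval -0.43 to 0.07). Psmb9 ran from 8.64 to 9.18 (median 8.94) and from 8.46 to 9.50 (median 8.98), and its means differed by -0.01 (95% interval -0.29 to 0.28). The groups overlapped in both genes. For Psmb10 the difference was -0.06 (95% interval -0.31 to 0.20).

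Psme1 and Psme2, the alpha and beta subunits of the proteasome activator cap, differed by -0.04 (95% interval -0.27 to 0.19) and -0.03 (95% interval -0.23 to 0.16). Tap1, a subunit of the transporter that carries peptides into the endoplasmic reticulum, differed by -0.18 (95% interval -0.40 to 0.04). Nlrc5, the transactivator of MHC class I genes, had the largest positive difference among the companions, 0.25 (95% interval -0.08 to 0.59), with 2 of 7 HFD mice above all SD mice. Adjusted p ran from 0.614 (Tap1) to 0.992 (Psmb9) in limma. The upper ends of the 7 intervals lay between 0.04 and 0.59, where Ubd stood at 4.09.

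**Figure D3:**
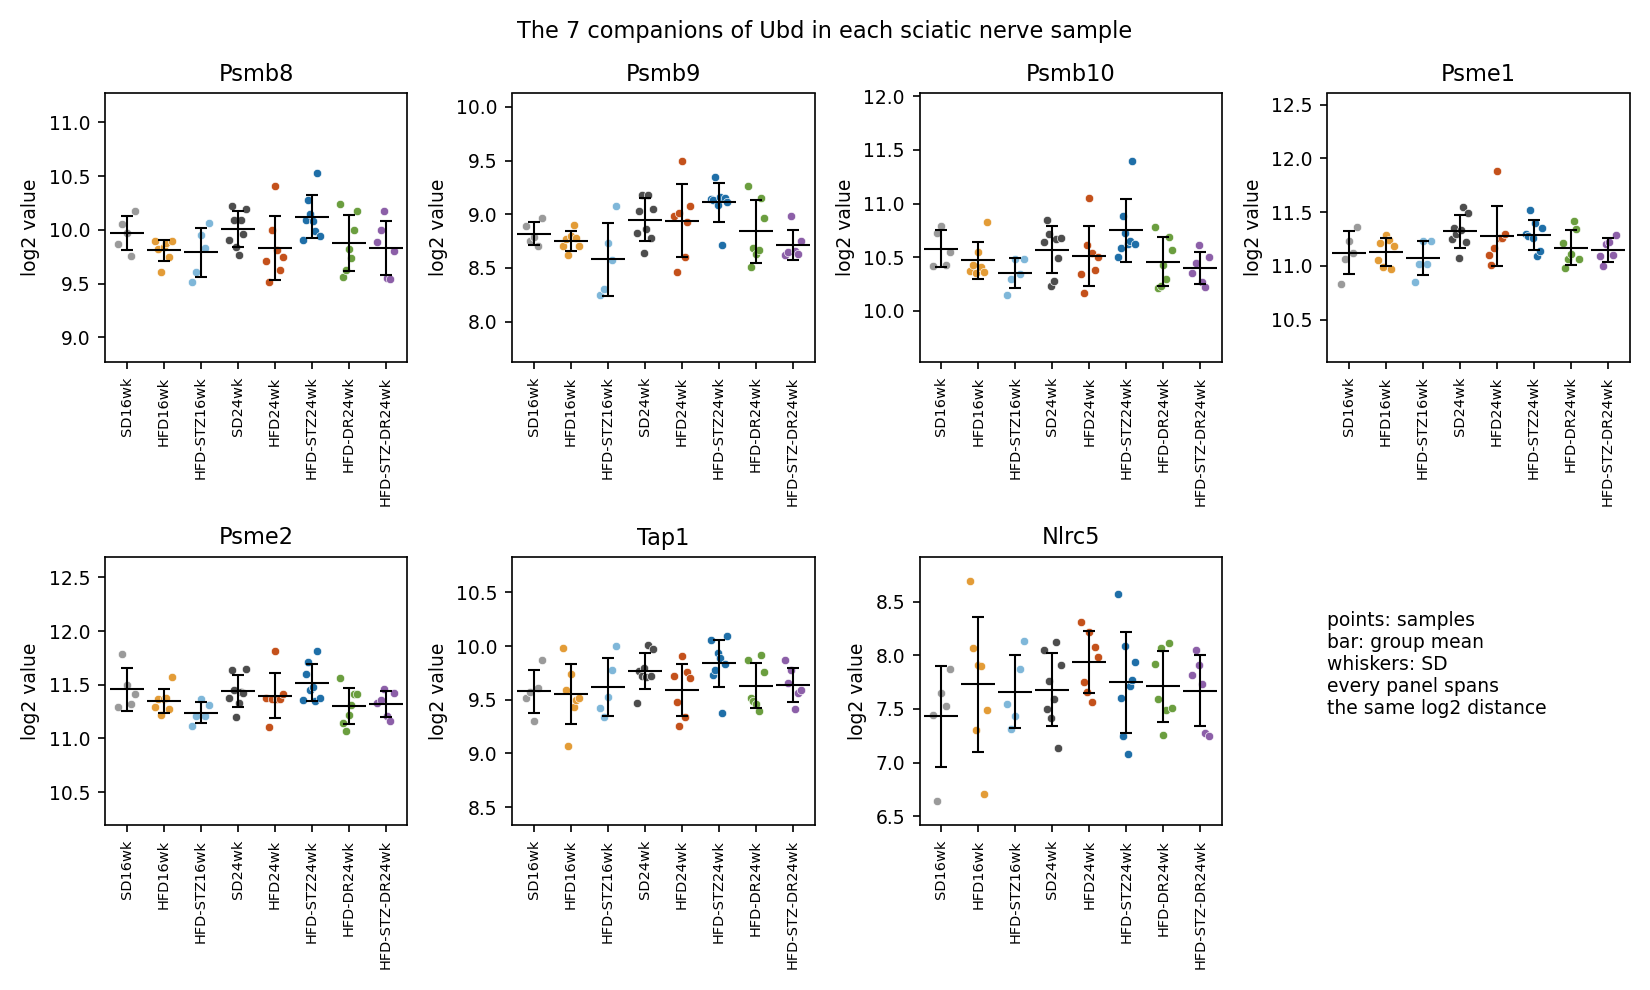
Log2 values of the 7 companions (vertical axes, all panels spanning the same distance) in each sample by group (horizontal axis), with mean bars and SD whiskers. Group means of a companion span at most 0.53 (Psmb9), and those of Ubd 4.49.

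The companions stayed within the spread between mice after reversal of HFD too. Between HFD-DR and HFD mice, 0 of 7 were called by limma and 0 had an unadjusted p under 0.05, where 0.0108% of 18475 genes were called and 6.72% had an unadjusted p under 0.05. The differences ran from -0.23 for Nlrc5 (95% interval -0.57 to 0.11) to 0.05 for Psmb8 (95% interval -0.24 to 0.35), with Psmb9 at -0.10, Psmb10 at -0.05, Psme1 at -0.11, Psme2 at -0.10 and Tap1 at 0.04. No companion separated the 2 groups.

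In the T2D model at 24 weeks, 6 of 7 companions had the higher mean in HFD-STZ mice than in SD mice, by small amounts. The differences ran from -0.03 (Psme1) to 0.18 (Psmb10, 95% interval -0.08 to 0.44), with 0.11 for Psmb8 and 0.16 for Psmb9. Limma called 0 of 7, with 0 at an unadjusted p under 0.05, where 0.0336% of 17846 genes were called and 5.99% had an unadjusted p under 0.05. Ubd stood 2.93 above SD in the same mice.

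After reversal in the HFD-STZ arm all 7 companions had the lower mean, with a median difference of -0.19, against 51.9% of all genes with a higher mean. Limma called 0 of 7, in a comparison that called 0.084% of 17862 genes, and 4 of 7 had an unadjusted p under 0.05, against 6.48% of all genes. Most other proteasome genes had lower means as well. These were 15 of 16 other genes of the core and its assembly (median -0.09) and 15 of 20 activator and regulatory-particle genes (median -0.02). In both of these lists, 0 genes had an unadjusted p under 0.05. Psmb9 was from 8.71 to 9.35 in HFD-STZ mice (median 9.14) and from 8.62 to 8.98 in HFD-STZ-DR mice (median 8.65), with 4 of 6 reversed mice below all 8 HFD-STZ mice. The difference was -0.39 (SE 0.10, 95% interval -0.60 to -0.19, exact permutation p = 0.002, adjusted p = 0.179 with limma). It passed the threshold only without the HFD-STZ mouse that was lowest for both Psmb9 (8.71) and Ubd (4.86), with a difference of -0.45 (adjusted p = 0.0182 with limma), when 167 genes in place of 15 were called.

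Psmb10 differed by -0.35 (95% interval -0.61 to -0.09) and Psmb8 by -0.29 (95% interval -0.55 to -0.04), with adjusted p = 0.502 and 0.649 in limma. Psme2 differed by -0.19 (95% interval -0.37 to -0.02), and Psme1 (-0.14), Tap1 (-0.19) and Nlrc5 (-0.08) had intervals that reached 0. One HFD-STZ mouse had the highest Psmb8 (10.53), Psmb10 (11.40) and Psme2 (11.81) of its group and also the highest Psmb5 (12.26), Psmb6 (13.63) and Psmb7 (11.33), the standard catalytic subunits, while its Ubd was 6.81. The adipocyte mean, given above, also differed between these groups. With it as a covariate, Psmb9 stood at -0.24, Psmb8 at -0.46 and Psmb10 at -0.58, with adjusted p from 0.408 to 0.46 in limma. Over all alternatives that keep every mouse, adjusted p for Psmb9 ran from 0.175 to 0.46.

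Whether the effect of reversal on a companion differed between the models was tested as an interaction. Limma called 0 of 7 companions and 0% of 18161 genes (1.71% under an unadjusted p of 0.05), and for Psmb8 the interaction was -0.35 (95% interval -0.73 to 0.04) and for Psmb9 -0.29 (95% interval -0.68 to 0.09). Of the 7, 0 had an unadjusted p under 0.05. As a description, the interaction of Ubd was 0.87.

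**Figure D4:**
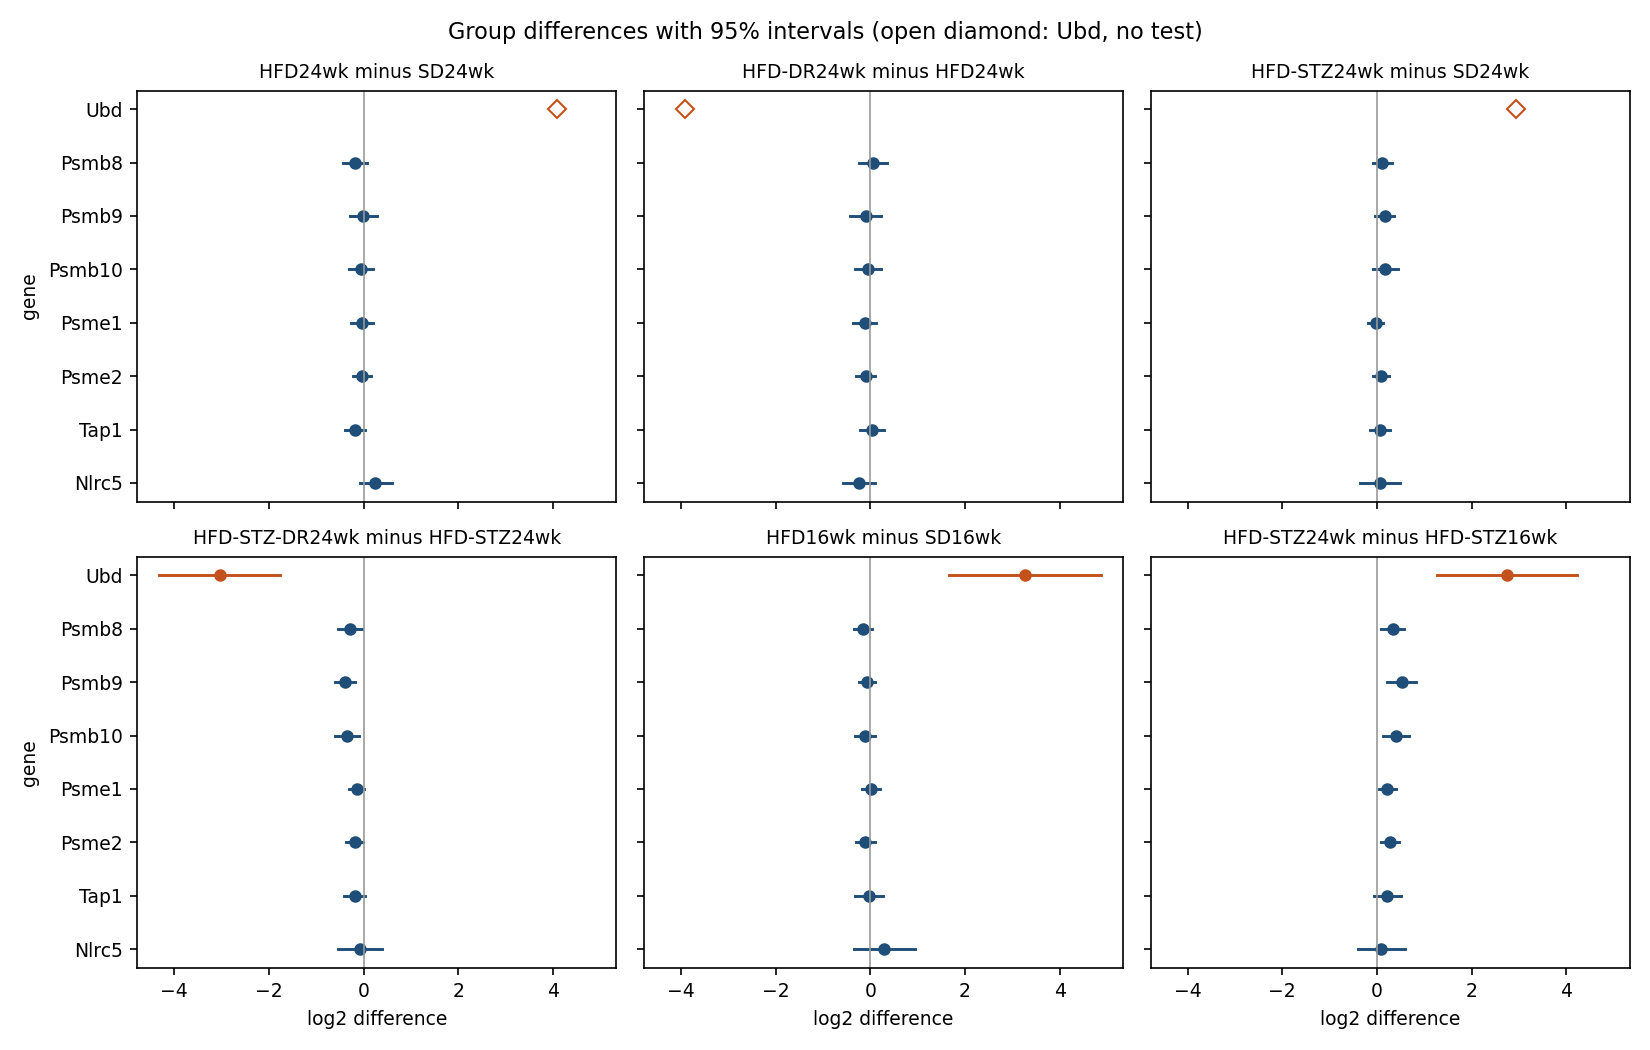
Log2 differences (horizontal axis) of Ubd and its 7 companions (vertical axis) in 6 comparisons, with 95% intervals as lines. Open diamonds give Ubd without a test in the comparisons of mice that chose it. Companion differences lie between -0.39 and 0.52, and Ubd differences between -3.92 and 4.09.

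At 16 weeks, too, Ubd differed more than its companions. Between HFD and SD mice, limma called 0 of 7 companions (0 at an unadjusted p under 0.05) and 0.00557% of 17962 genes, with 8.55% of genes under an unadjusted p of 0.05, and the companion differences ran from -0.16 (Psmb8) to 0.30 (Nlrc5, 95% interval -0.35 to 0.94). For HFD-STZ against SD mice, limma called 0 of 7 and 0% of 17879 genes, and Psmb10 (-0.23, 95% interval -0.45 to -0.02) and Psme2 (-0.22, 95% interval -0.43 to -0.01) had an unadjusted p under 0.05, against 8.41% of all genes. Both means were the lower ones in HFD-STZ mice. The change of the HFD effect between 16 and 24 weeks gave 0 of 7 companions and 0% of 18087 genes, with 1.67% of genes under an unadjusted p of 0.05, and companion values between -0.15 (Tap1) and 0.07 (Psme2), beside 0.83 for Ubd as a description.

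The widest companion differences were found within the HFD-STZ arm over age. All 7 means were higher at 24 than at 16 weeks, where 50.5% of all genes had a higher mean, and 5 of 7 had an unadjusted p under 0.05, against 12.5% of all genes. Limma called 0 of 7 and 0% of 17963 genes. Psmb9 read 8.25, 8.30, 8.73, 8.57 and 9.08 at 16 weeks and from 8.71 to 9.35 at 24 weeks, a difference of 0.52 (95% interval 0.22 to 0.82, adjusted p = 0.279 with limma). Psmb10 read 10.15, 10.30, 10.48, 10.34 and 10.48 at 16 weeks and from 10.50 to 11.40 at 24 weeks, a difference of 0.40 (95% interval 0.12 to 0.68, adjusted p = 0.293 with limma). Psmb8 differed by 0.33, Psme2 by 0.27 and Psme1 by 0.22, and the 3 standard catalytic subunits also had higher means, by 0.15 to 0.32. Higher means were thus not particular to the companions. All 16 other genes of the proteasome core and its assembly were higher (median 0.21), 2 with an unadjusted p under 0.05. So were all 20 activator and regulatory-particle genes (median 0.15), 1 with an unadjusted p under 0.05. The adipocyte markers had a median difference of 1.37 between these groups, 5 of 6 with an unadjusted p under 0.05. With their mean as a covariate limma called 0 genes, the same number as without it. That count cannot show their part in the companion values, which was not tested further.

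Direct comparisons of the 2 disease models gave no call either. At 24 weeks, HFD-STZ mice differed from HFD mice by 0.29 in Psmb8 (95% interval 0.02 to 0.55, adjusted p = 0.785 with limma), the 1 companion of 7 with an unadjusted p under 0.05, against 5.59% of 18117 genes, while Ubd stood at -1.16. In these mice 22 of 22 type I interferon targets had the higher mean (median 0.23), 8 with an unadjusted p under 0.05. Of 22 interferon gamma targets, 18 were higher and 4 lower (median 0.19), 7 of the higher ones with such a p. Over all genes, 47.9% had a higher mean. At 16 weeks, 0 of 7 companions had an unadjusted p under 0.05, against 4.88% of 18202 genes, with differences from -0.17 (Psmb9) to 0.07 (Tap1). In both, 0% of genes were called by limma.

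The rest of the proteasome differed by small amounts. Psmb5, Psmb6 and Psmb7, the standard subunits that the immunoproteasome subunits replace, stood at -0.15, -0.15 and -0.17 in HFD relative to SD mice at 24 weeks, and 0 of 3 had an unadjusted p under 0.05. The remaining 16 genes of the core particle and its assembly had differences from -0.18 to -0.02, and the 20 activator and regulatory-particle genes from -0.22 (Psmd2) to -0.05, with 6 of 20 at an unadjusted p under 0.05, all lower, where 9.05% of all genes in this comparison had such a p. Of 7 genes that conjugate or handle FAT10, 0 had an unadjusted p under 0.05, with Vcp, the segregase, at -0.21 and Ube2z, the conjugating enzyme for FAT10, at -0.13. Sqstm1, the autophagy receptor that binds FAT10, stood at -0.07. Limma called 0 genes of any of these lists in any comparison.

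Interferon target genes in HFD nerve lay on both sides of SD. Of 22 interferon gamma targets tested, 6 had a higher and 16 a lower mean in HFD than SD mice at 24 weeks (median difference -0.09, against 0.00774 over all genes), with 2 higher and 4 lower at an unadjusted p under 0.05 (9.05% of all genes) and 0 called by limma. Cxcl9, a chemokine induced by interferon gamma, stood at 1.07 (SE 0.36, adjusted p = 0.366 with limma), and Tgtp1, a GTPase of the same response, at -0.72 (SE 0.15, adjusted p = 0.0683 with limma). Among 22 type I interferon targets, 10 means were higher and 12 lower, with 0 at an unadjusted p under 0.05. Ifi27l2a stood at 0.36 (SE 0.41) and Ifit1 at -0.26 (SE 0.19). Of 10 genes of the interferon gamma signalling chain, 5 were higher and 5 lower, and Ciita, the MHC class II transactivator, stood at 0.36 (SE 0.21).

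MHC class I and peptide-loading genes had 10 higher and 5 lower means of 15 in HFD mice, with B2m, the MHC class I light chain, at 0.32 (SE 0.15, adjusted p = 0.562 with limma) and H2-K1, a heavy chain, at 0.22 (SE 0.17). After HFD reversal B2m stood at -0.44 (SE 0.14, adjusted p = 0.58 with limma). TNF and NF-kB targets were divided evenly, 7 higher and 7 lower of 14, with Cxcl1 at 0.49 (SE 0.36) and Ccl2 at 0.20 (SE 0.20), both chemokines. None of these genes passed the threshold.

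In comparisons with the HFD-STZ mice of 24 weeks, nearly all type I interferon targets had means on 1 side, while some other lists were split. Relative to SD mice of that age, 15 interferon gamma targets had higher and 7 lower means. Genes of the interferon gamma signalling chain had 5 higher and 5 lower means, and TNF and NF-kB targets 7 higher and 6 lower. After reversal, TNF and NF-kB targets had 5 higher and 8 lower means. Set against SD mice of 24 weeks, HFD-STZ mice had 22 of 22 type I interferon targets at a higher mean (median 0.27), 8 of them with an unadjusted p under 0.05, where 50.2% of all genes had a higher mean and 5.99% an unadjusted p under 0.05. After reversal, 21 of 22 had the lower mean (median -0.35), 11 with an unadjusted p under 0.05, against 6.48% of all genes. Over age in HFD-STZ mice, 21 of 22 had the higher mean at 24 weeks (median 0.39), 11 with an unadjusted p under 0.05, against 12.5% of all genes, and the smallest adjusted p was 0.063 in limma. Of 22 interferon gamma targets, 21 had the higher mean there, 3 of them with an unadjusted p under 0.05. All 3 comparisons share the HFD-STZ mice of 24 weeks, and limma called 0 of 22 in each. After reversal, Ifi27l2a stood at -1.84 (SE 0.35, adjusted p = 0.0719 with limma) and Oas1a, which senses double-stranded RNA, at -0.56 (SE 0.18, adjusted p = 0.368). Of 15 MHC class I and peptide-loading genes, 14 had the lower mean after reversal, with H2-K1 at -0.50 (SE 0.10, adjusted p = 0.0713 with limma) and H2-Q6 at -0.39 (SE 0.13). Of the interferon gamma targets, 19 of 22 had the lower mean after reversal, with Cxcl9 at -1.49 (SE 0.42, adjusted p = 0.259 with limma). The 3 standard catalytic subunits ran from -0.10 to 0.03 there.

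Markers of other cells of the nerve differed between groups to unequal degrees, and limma called no marker gene in any comparison. Between HFD and SD mice at 24 weeks, the 6 adipocyte markers had a median difference of 0.65, the 6 macrophage markers 0.32, the 7 dendritic cell markers tested 0.31, the 5 B cell markers 0.75 and the 6 T and NK cell markers tested 0.31. Itgax, an integrin of dendritic cells and of macrophages in fat, had the largest difference among them, 1.79 (SE 0.37, adjusted p = 0.0683 with limma), and stood at -1.44 (SE 0.36, adjusted p = 0.332 with limma) after HFD reversal. The mean of the 8 dendritic cell markers ran from 6.91 to 7.63 in SD, 7.10 to 8.21 in HFD and 6.91 to 7.23 in HFD-DR mice, and 5 of the 7 tested had the higher and 2 the lower mean in HFD than in SD mice. The mean of the 5 B cell markers ran from 3.83 to 5.05 in SD and from 4.55 to 6.36 in HFD mice. The part of these cells in the Ubd values was not tested. Skeletal muscle markers, with a median difference of -1.72, varied widely within groups, from 7.02 to 17.28 among SD mice. Schwann cell markers stood high in all samples, with a median difference of -0.11. Endothelial and fibroblast markers had medians of -0.10 and -0.01. In HFD-STZ against SD mice at 24 weeks, Ubd stood 2.93 higher and the macrophage markers had a median difference of -0.09. The medians there were -0.11 for dendritic cell, -0.02 for B cell and 0.17 for T and NK cell markers, and 0.66 for adipocyte markers.

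Mice of 1 group with higher Ubd mostly had higher companion values, but no relation passed adjustment. Over the 6 groups with at least 6 mice and the 7 companions, 38 of 42 Pearson correlations were positive, with a median of 0.35 and a range from -0.49 to 0.90. These 42 share mice and are not independent. The share of positive correlations over all genes was not computed, so the count does not set the companions apart from other genes. The highest were in HFD mice at 24 weeks, with Tap1 (r = 0.90, rho = 0.93, n = 7, exact permutation p = 0.0105 and 0.00675, r = 0.77 without 2 samples) and Nlrc5 (r = 0.90, rho = 0.86, n = 7, exact permutation p = 0.0139 and 0.0238, r = 0.86 without 2 samples). Of the 42, 3 Pearson and 4 Spearman coefficients had an exact permutation p under 0.05 and 0 of either passed adjustment over the 42, the smallest adjusted p being 0.28. The 4 by Spearman were Tap1 and Nlrc5 in HFD mice at 24 weeks and the same genes in HFD mice at 16 weeks (Tap1 rho = 0.86, r = 0.54, and Nlrc5 rho = 0.79, r = 0.64, n = 7, exact permutation p = 0.0238 and 0.048 for rho). The third by Pearson was Psmb9 in HFD-STZ mice at 24 weeks (r = 0.76, rho = 0.60, n = 8, exact permutation p = 0.02 and 0.132, r = 0.64 without 2 samples). In HFD mice at 24 weeks, Tap1 read 9.72, 9.48, 9.26, 9.91, 9.34, 9.76 and 9.70 in the mice whose Ubd was 9.88, 7.24, 7.04, 10.19, 8.07, 9.46 and 8.62. Ubd also rose with the adipocyte marker mean in these mice (r = 0.98). Whether Tap1 and Nlrc5 followed Ubd apart from that mean was not tested.

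The genes whose pattern was most like that of Ubd came from elsewhere. Over all 53 samples and 18068 genes, the highest Pearson correlations with Ubd were those of Tph2 (0.954), 1700047G03Rik (0.951), Itgad (0.945), Saa3 (0.943), Oxtr (0.928), Kcnj14 (0.924), Tfr2 (0.922), Wfdc21 (0.914), Slc5a7 (0.913) and Gm5627 (0.911). Of these, Tph2 encodes a tryptophan hydroxylase, Itgad an integrin of macrophages, Saa3 an acute-phase protein made in fat and macrophages, Oxtr the oxytocin receptor, Kcnj14 a potassium channel, Tfr2 a transferrin receptor and Slc5a7 a choline transporter. The correlations hold the differences between groups, and after subtracting group means the 5 highest were 1700047G03Rik (0.889), Tph2 (0.87), Kcnj14 (0.868), Saa3 (0.858) and Itgad (0.854). The companions had 0.096 (Psmb8) to 0.419 (Nlrc5), at ranks 5662 to 1150, and the 6 adipocyte markers 0.633 (Plin1) to 0.759 (Fabp4). After subtracting group means, the companions had 0.083 (Psmb10, rank 5827) to 0.529 (Tap1, rank 510) and the adipocyte markers 0.567 (Plin1) to 0.677 (Lipe). These are descriptions over samples that share groups and tissue composition.

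The level of Tph2 was 3.76 in SD, 9.18 in HFD and 4.65 in HFD-DR mice at 24 weeks, and that of Saa3 3.39, 7.12 and 3.87. In the HFD-STZ arm, Tph2 was 4.64 at 16 weeks, 7.25 at 24 weeks and 3.63 after reversal, and Itgad was 4.43, 6.71 and 3.65. Ubd read 4.73, 7.48 and 4.44 in the same groups.

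**Figure D5:**
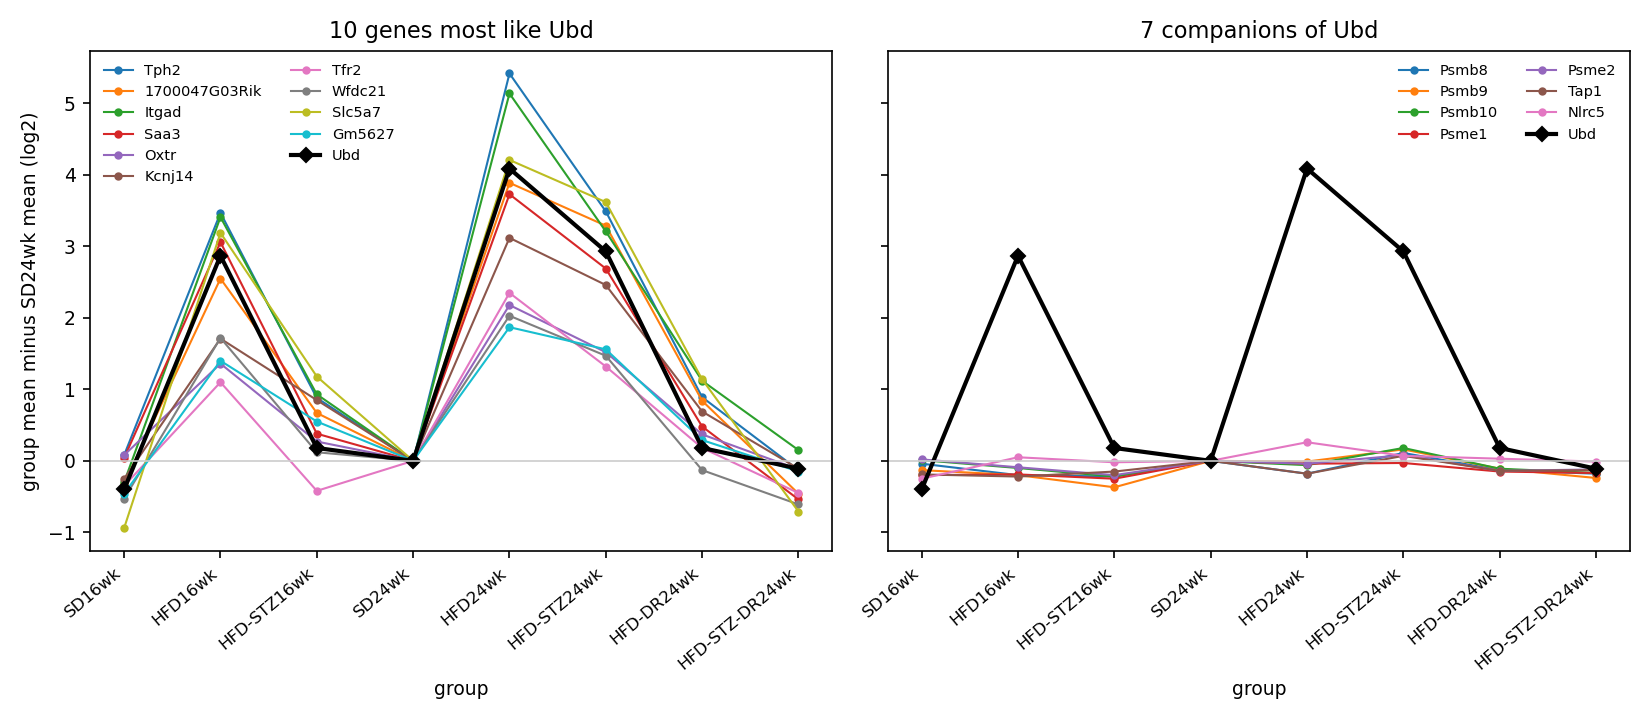
Group means of log2 values minus the mean of SD mice at 24 weeks (vertical axis) in the 8 groups (horizontal axis), for the 10 genes most like Ubd (left) and its 7 companions (right), with Ubd in black in both. Lines join groups for reading only, and Ubd reaches 4.09 in HFD mice at 24 weeks, while the group means of a companion span at most 0.53.

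The genes beside Ubd were mostly too low to test. Within 100 kb of Ubd lie 20 other annotated genes, most of them olfactory receptor genes and pseudogenes, and 19 of them had a mean under the minimum for testing. The 1 tested, H2-M3, an MHC class Ib gene at chr17:37270220-37274484, was at 9.06 in SD and 9.03 in HFD mice at 24 weeks, a difference of -0.02 (adjusted p = 0.96 with limma).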

How the data were processed

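RNA from 53 sciatic nerve samples in 8 groups was sequenced as polyA-selected, non-stranded libraries, per the study's methods. Per the labels, HISAT2, featureCounts and DESeq2 were used on the mm10 (GRCm38) build, with versions not given in the sources used here. The authors deposited 1 log2 value per gene and mouse, and the sources do not name their normalization. They hold no counts, so reads per gene are unknown and no counting interval is given.

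Pairs of groups were compared with limma 3.58.1 in R 4.3.3 (moderated test, prior variance following mean expression) on their samples only. Tested genes had a mean of 3.32 (linear 10) or more and no value above 22, which left out 25 genes, and all 8 genes passed in every comparison. Benjamini-Hochberg adjustment covered every tested gene, with a threshold of 0.05. Exact permutation tests are 2-sided over all splits of the mice or pairings. The labels do not say outright that each sample is a separate mouse, so p-values measure the spread between samples, which may be technical. The 8 runs of consecutive library numbers each held mice of several groups, and 1 alternative fitted them. Adipocyte markers as a covariate and as a correlation partner were added after seeing the data. All genes and lists were chosen with earlier results of these data known, and the named genes of each list are the 3 with the largest difference between HFD and SD mice at 24 weeks. The test was tried on simulated data. Promoter sequences came from RefSeq tables, and the motifs were fixed letter patterns that did not come from those tables. Correlations were computed with numpy 2.4.6.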

Additional observations from a re-analysis of the deposited data

Results flagged for a closer look

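In 64 combinations of a gene and a group, 6 values lay far from those of the other mice of their group, and chance flags about 1 in 20. Genes measured in the same mouse are not independent. In HFD mice at 24 weeks, 1 mouse had Psme1 at 11.88 with the nearest at 11.30, and Psme2 at 11.81 with the nearest at 11.41. It was also the mouse with the highest Ubd, 10.19. In HFD-STZ mice at 24 weeks, the lowest Psmb9 was 8.71 with the nearest at 9.09, in the mouse with the lowest Ubd, and the highest Psmb10 was 11.40 with the nearest at 10.88. The highest Psmb9 among HFD-STZ-DR mice was 8.98 with the nearest at 8.75, and the highest Psmb10 among HFD mice at 16 weeks was 10.83 with the nearest at 10.55.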

How the results depend on the processing

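No companion was called in any of the comparisons or interactions without a filter on low values, with a value of at least 10 on the linear scale in every sample, with all 8 groups in 1 fit, with the library run added, with robust variances, with no trend, with median-centred samples, with genes above 22 kept or with the adipocyte mean as a covariate. The last 2 and the rank correlations were chosen after seeing the data. Leaving out 1 mouse gave 0 to 1 companions called for HFD-STZ-DR against HFD-STZ (1 without the HFD-STZ mouse with Ubd at 4.86) and 0 elsewhere. Over all genes, the number called moved by more than 1.5 times. It was 22 for HFD against SD at 24 weeks (7 to 120 over the alternatives), 2 for HFD-DR against HFD (0 to 27), 6 for HFD-STZ against SD at 24 weeks (3 to 17), 15 in the HFD-STZ reversal (0 to 47) and 1 for HFD against SD at 16 weeks (1 to 16). No paired analysis was possible because the labels carry no replicate numbers. The runs of library numbers, fitted as a block above, do not pair single mice.

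Some companion differences that were not called changed sign, and the cause was not tested. With the adipocyte covariate, HFD-DR against HFD gave 0.0808 for Psmb9, 0.0334 for Psmb10, 0.0302 for Psme1 and 0.000294 for Nlrc5, HFD-STZ-DR against HFD-STZ gave 0.0287 for Psme1, HFD against SD at 16 weeks gave -0.18 for Psme1 and -0.36 for Nlrc5, and HFD-STZ against SD at 16 weeks gave -0.061 for Tap1. Median-centring gave -0.022 for Psme1 in HFD against SD at 16 weeks.

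Leaving out 1 mouse also turned some signs. For HFD against SD at 24 weeks the ranges were -0.10 to 0.0712 for Psmb9, -0.15 to 0.00123 for Psmb10, -0.14 to 0.00898 for Psme1 and -0.10 to 0.0142 for Psme2. For HFD-DR against HFD they were -0.00584 to 0.15 for Psmb8, -0.11 to 0.037 for Psmb10 and -0.0194 to 0.0877 for Tap1. For HFD-STZ against SD at 24 weeks they were -0.0624 to 0.00684 for Psme1 and -0.0499 to 0.16 for Nlrc5, and in the HFD-STZ reversal -0.18 to 0.0385 for Nlrc5. At 16 weeks they were -0.0574 to 0.0751 for Psme1 and -0.0996 to 0.0513 for Tap1 in HFD against SD, and -0.12 to 0.0126 for Psme1 and -0.0562 to 0.11 for Tap1 in HFD-STZ against SD.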
